A study of Mus musculus with 3 samples.

Results

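The 9 genes described here encode scaffold proteins of the postsynaptic density, the protein layer under the membrane of excitatory synapses: Dlg2, Dlg3 and Dlg4, Shank1, Shank2 and Shank3, and Homer1, Homer2 and Homer3. They were listed by symbol, and all 9 were found among the 32531 gene symbols of the count tables. The RNA came from adult mice on a C57BL/6J background that carry EGFP fused to the ribosomal protein Rpl10a in the Htr6-TRAP line NIDA113, named for the serotonin receptor gene Htr6. Tagged ribosomes were isolated from the deep nuclei of the cerebellum on beads carrying antibodies against EGFP, and the RNA they held was sequenced. All 3 libraries, replicates 1 to 3, are immunopurified samples of this single group, so levels were compared between genes within a library and no condition was compared. Unpurified tissue was not analysed here, and a level is therefore an abundance in the purified RNA. Nothing in the labels ties the replicates to separate mice, so p-values and SDs measure only the spread between these samples, which may be technical. In such bulk RNA, fewer cells of a type and less RNA per cell cannot be told apart.

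The scaffold is built in layers. Dlg proteins belong to the membrane-associated guanylate kinases, which hold glutamate receptors and adhesion proteins through their PDZ domains near the membrane. SAPAP proteins, products of the Dlgap genes, join the guanylate kinase domain of Dlg proteins to the PDZ domain of Shank proteins deeper in the density. Homer proteins bind Shank through an N-terminal EVH1 domain, and through the same domain they tether membrane receptors and the IP3 receptor. In the cerebellum, Dlg2 and Homer3 are known from Purkinje cells, the neurons whose axons end on the deep nuclei, and Shank1 and Shank2 are also found there, while Shank3 is known from granule cells.

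The libraries held 7622010 to 8842058 counts assigned to genes, and the 9 genes took 22839, 30881 and 25381 of them in replicates 1, 2 and 3, or 0.297%, 0.349% and 0.333%. Neuronal genes were high throughout, with 8 of 8 pan-neuronal markers at 10 RPKM or more in every library, where RPKM is the count scaled to library size and to kilobases of exon. That level was also reached by 8 of 10 granule cell markers, 4 of 10 Purkinje cell markers, 4 of 5 oligodendrocyte markers and 3 of 5 astrocyte markers. Over the 12539 genes with at least 10 counts in all and a known length, 18.0% reached it. Of the labelled tissue's own glutamatergic markers it was reached by 2 of 8, Slc17a6 and Spp1, and Lhx2 and Lmx1a were each at 0 counts in 1 library. Of 6 inhibitory neuron markers, 2 reached that level, Gad2 and Gad1, and Sox14 was at 0 in every library. Of 5 microglial markers, 3 were at 0 in every library. Which of these cells the scaffold transcripts came from was not tested.

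The paralogs can be told apart in sequence. No stretch of 50 bases in the annotated transcripts of any of the 9 genes recurred in another of the 9, and between 0% and 1.06% of such stretches recurred in any other gene. The longest runs of identical coding bases between family members were 26 bases for the Dlg and Shank genes and 17 bases for the Homer genes, shorter than those stretches. They are printed for 3 pairs, since the ratios between paralogs rest on reads that can be assigned to a single gene. Capitals mark the shared run, lower case the 10 coding bases on each side, 5′ to 3′ on the gene's strand, from GENCODE M21 transcripts (mm10).
Dlg2 (chr7:92088589-92088634, plus strand): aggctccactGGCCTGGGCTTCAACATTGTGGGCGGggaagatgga
Dlg4 (chr11:70039189-70039234, plus strand): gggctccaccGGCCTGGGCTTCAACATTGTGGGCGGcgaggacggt
Shank1 (chr7:44316083-44316128, plus strand): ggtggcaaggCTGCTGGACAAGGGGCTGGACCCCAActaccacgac
Shank3 (chr15:89503170-89503215, plus strand): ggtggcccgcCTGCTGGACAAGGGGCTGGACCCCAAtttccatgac
Homer1 (chr13:93341777-93341813, plus strand): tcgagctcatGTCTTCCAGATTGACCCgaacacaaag
Homer2 (chr7:81649653-81649689, minus strand): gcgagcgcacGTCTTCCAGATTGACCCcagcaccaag

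Dlg2 and Shank1 dominated the scaffold genes. Together they took 85.7%, 87.8% and 83.2% of the counts of the 9 genes in replicates 1, 2 and 3. Per length of merged exons, 3 of the 9 genes (Dlg2, Shank1 and Shank2) had at least 10 RPKM in every library, where 18.0% of the 12539 genes with at least 10 counts in all and a known length did. At least 1 RPKM in every library was reached by 8 of 9, all but Homer1, against 54.1% of those genes. The median over the 9 genes of the mean level was 4.92 RPKM, beside 3.94 RPKM over those genes. Since the 9 genes were listed with results of these data known, these shares are a description.

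**Figure D1:**
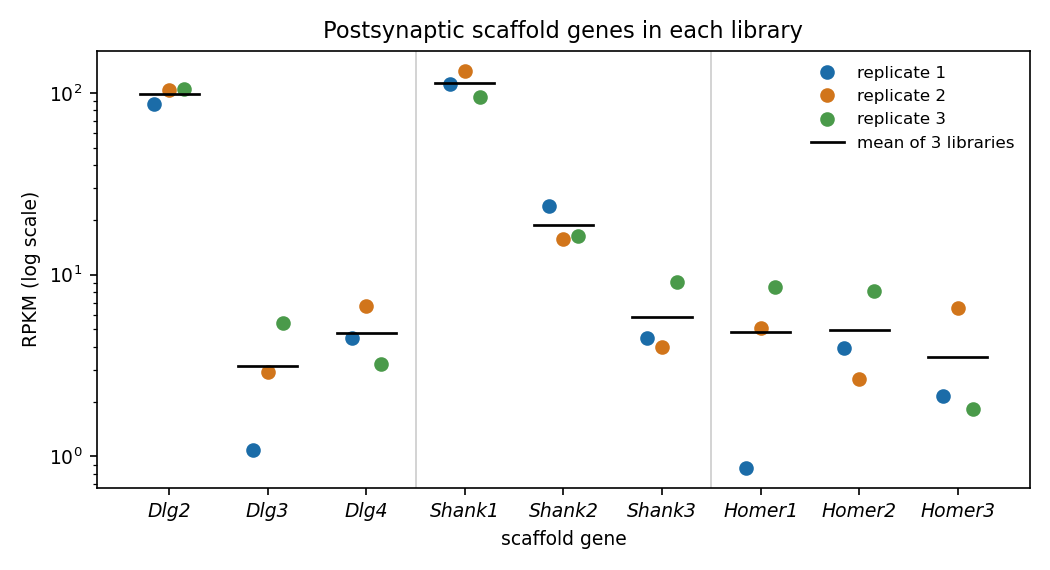
RPKM per library (log axis; merged exon length) of the 9 scaffold genes, with 1 point for each of replicates 1 to 3 and a bar at their mean. Dlg2 and Shank1 sit near 100 RPKM in every library, Shank2 between 15.6 and 23.9 RPKM, and the other 6 genes below 10 RPKM with points up to 9.88-fold apart.

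Dlg2, which encodes the guanylate kinase scaffold known as chapsyn, was the main Dlg transcript. The gene (ENSMUSG00000052572.17, plus strand of chromosome 7, positions 90476672 to 92449247 in mm10) spans 1972576 bases, and its longest coding transcript has 28 exons. It had 10656, 14828 and 13367 counts in replicates 1, 2 and 3, which is 86.7, 103 and 105 RPKM (98.5 ± 10.3 RPKM; SD, n = 3). The 3 libraries lay within a factor of 1.22 of each other, the narrowest range of the 9 genes. By mean RPKM, Dlg2 ranked 197 of 12539 genes.

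The other Dlg genes were far lower. Dlg4 (ENSMUSG00000020886.17, plus strand of chromosome 11, 70016942 to 70047522), whose product is the best-known scaffold of forebrain excitatory synapses, had 446, 785 and 332 counts, or 4.46, 6.72 and 3.22 RPKM (4.80 ± 1.78 RPKM; SD, n = 3). Dlg3 (ENSMUSG00000000881.12, plus strand of chromosome X, 100767722 to 100818410), a scaffold linked to receptor trafficking in young synapses, had 48, 149 and 248 counts, or 1.09, 2.89 and 5.45 RPKM (3.14 ± 2.19 RPKM). Dlg4 was highest in replicate 2 and Dlg3 in replicate 3. Over merged exons, the ranges of both genes overlapped each other but not that of Dlg2.

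Dlg2 exceeded Dlg4 by 4.25, 3.92 and 4.99 on the log2(RPKM + 0.1) scale, a mean of 4.39 ± 0.55 (20.9-fold; SD, n = 3; higher in 3 of 3 libraries). It exceeded Dlg3 by 5.18 ± 0.97 (36.3-fold), again in 3 of 3 libraries. Both differences were several times their SD. With 3 libraries, the smallest p that an exact two-sided permutation of signs allows is 0.25, for these and all other pairs of paralogs, and both reached it (0.45 after Benjamini-Hochberg adjustment over the 9 pairs). The difference of Dlg3 minus Dlg4, -0.80 ± 1.38, was within its SD, with Dlg3 higher in 1 of 3 libraries (exact permutation p = 0.5, adjusted p = 0.75). It was -0.22 without replicate 1 and -1.56 without replicate 3, where Dlg3 was higher. Dlg2 made up 94.0%, 91.5% and 92.4% of the summed RPKM of the 3 Dlg genes, a share of 92.6 ± 1.26%.

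The length given to a gene sets its RPKM, and annotated transcripts of the Dlg genes differ in length. Merged exons span 16280 bases in Dlg2 and 13251 in Dlg4, while the transcripts with the longest coding sequence are 7813 and 3414 bases long. Scaled by those, Dlg2 was at 205 ± 21.4 RPKM and Dlg4 at 18.6 ± 6.90 RPKM (SD, n = 3), and their difference was 3.51 ± 0.56 in log2 units (11.4-fold). On this scale Dlg3 lay below Dlg4 in 3 of 3 libraries, by -2.50 ± 1.40. The same order held in 3 of 3 libraries over the longest protein-coding transcript of each gene (-1.62 ± 1.39). With counts scaled to library size but not to length, Dlg3 minus Dlg4 was -1.92 ± 1.36, again below in 3 of 3.

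Shank1, the master scaffold that binds SAPAP, Homer and actin regulators, led its family. The gene (ENSMUSG00000038738.15, plus strand of chromosome 7, 44310253 to 44360572; 25 exons) had 8925, 12284 and 7762 counts, or 112, 133 and 94.7 RPKM (113 ± 18.9 RPKM; SD, n = 3). It was highest in replicate 2 and lowest in replicate 3, 1.40-fold apart. Shank2 (ENSMUSG00000037541.21, plus strand of chromosome 7, 144001928 to 144424494) had 1941, 1484 and 1376 counts, or 23.9, 15.6 and 16.4 RPKM (18.6 ± 4.54 RPKM).

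Shank3 (ENSMUSG00000022623.16, plus strand of chromosome 15, 89499623 to 89560261), the gene whose loss is known from Phelan-McDermid syndrome, had 312, 324 and 649 counts, or 4.50, 4.002 and 9.06 RPKM (5.85 ± 2.79 RPKM; SD, n = 3). It was highest in replicate 3, the library in which Shank1 was lowest. The ranges of the 3 Shank genes did not overlap.

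Within a library the order was Shank1, Shank2, Shank3 in 3 of 3 libraries. Shank1 exceeded Shank2 by 2.61 ± 0.43 in log2 units (6.10-fold) and Shank3 by 4.33 ± 0.86 (20.2-fold), and Shank2 exceeded Shank3 by 1.72 ± 0.79 (3.30-fold; SD, n = 3). Each was larger than its SD, with the smallest possible exact permutation p of 0.25 (adjusted 0.45). Shank1 held 79.9%, 87.1% and 78.8% of the summed RPKM of the family, Shank2 13.6 ± 3.34% and Shank3 4.45 ± 2.69%. Shank3 took 7.54% in replicate 3 and 3.19% and 2.63% in replicates 1 and 2.

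**Figure D2:**
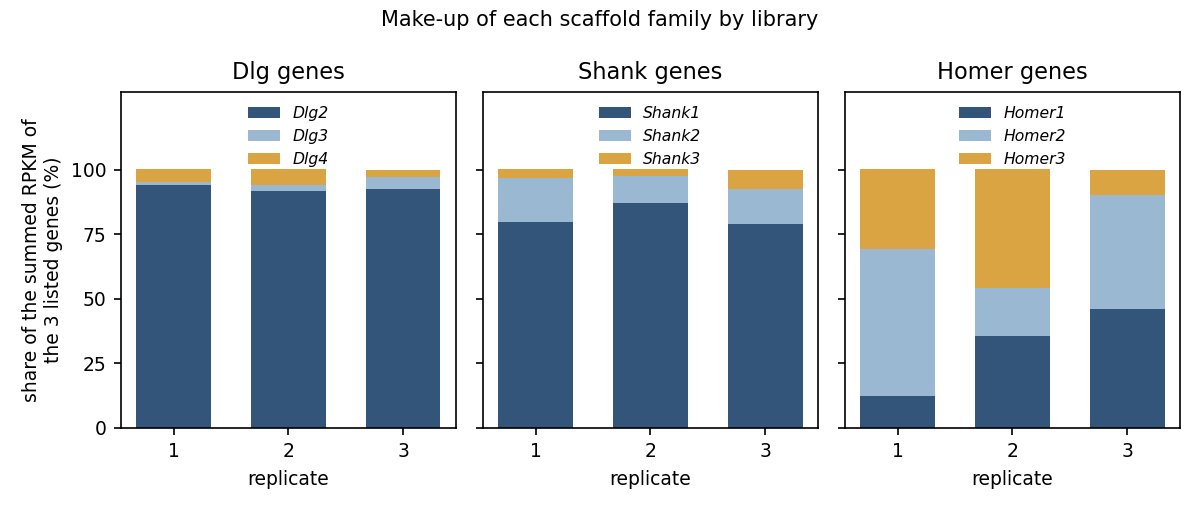
Share of each gene in the summed RPKM (merged exon length) of the 3 listed genes of its family, in percent, with 1 stacked bar per library. Dlg2 and Shank1 fill most of each bar in all 3 libraries, at least 91.5% and 78.8%, while each of the Homer genes is the largest part of the bar in a different library.

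The Homer genes were low and, over merged exons, had no stable order. Homer1 (ENSMUSG00000007617.18, plus strand of chromosome 13, 93299635 to 93405129) encodes long forms that form coiled-coil tetramers and a short, activity-induced form without the coiled coil, which counts per gene do not separate. It had 78, 534 and 795 counts, or 0.862, 5.06 and 8.52 RPKM (4.81 ± 3.83 RPKM; SD, n = 3). Replicate 1 stood far below the other libraries, 9.88-fold under replicate 3, the widest range of the 9 genes.

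Homer2 (ENSMUSG00000025813.14, minus strand of chromosome 7, 81600481 to 81707527), which encodes a long coiled-coil form, had 377, 295 and 803 counts, or 3.95, 2.65 and 8.16 RPKM (4.92 ± 2.88 RPKM; SD, n = 3). Homer3 (ENSMUSG00000003573.15, plus strand of chromosome 8, 70282827 to 70294361) had 56, 198 and 49 counts, or 2.16, 6.53 and 1.83 RPKM (3.51 ± 2.63 RPKM). Homer2 was highest in replicate 3 and Homer3 in replicate 2, and over merged exons the ranges of all 3 Homer genes overlapped. Of the exon bases of Homer3, 25.4% lie on exons of Ddx49, a gene on the other strand, and without strand information reads there cannot be told apart. Reads that fell on several genes were left out of the counts, while these bases stayed in the exon length. The effect on the Homer3 level was not tested. The exon bases shared with genes on the other strand came to 3.22% in Shank1, 2.95% in Shank3 and 4.16% in Homer2, and to 0 in Dlg3, Dlg4, Shank2 and Homer1. Dlg2 shared exon bases only with genes on its own strand, 0.461% with Gm45159 and 0.921% with Gm45131. The summed CPM (counts scaled to library size, without length) of the 10 Purkinje cell markers was 2741, 4126 and 3394 in replicates 1, 2 and 3. Its peak in replicate 2 came from Rgs8, the most abundant of them: without it the sum was 1272, 1815 and 1976, highest in replicate 3, and 4 of the 10 markers were highest in replicate 2 and 5 in replicate 3. The sums of the oligodendrocyte (3098, 3644 and 2883 CPM), vascular (44.6, 92.7 and 57.0 CPM) and microglial markers (29.1, 31.6 and 15.3 CPM) were highest in replicate 2 as well. Of these 10, 9 had at least 3 counts in every library, the exception being Pcp4 with 5, 2 and 1 counts, and none was at 0. The part of any of these cell types in the Homer3 level was not tested.

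The Homer paralogs did not differ beyond their spread when scaled by merged exons. Homer1 minus Homer2 was -2.08, 0.91 and 0.06 in log2 units (-0.37 ± 1.54; SD, n = 3; Homer1 higher in 2 of 3 libraries; exact permutation p = 1). Homer3 minus Homer1 was -0.19 ± 1.76 (exact permutation p = 1) and Homer3 minus Homer2 was -0.56 ± 1.70 (exact permutation p = 0.75, adjusted p = 0.96). All 3 changed sign when a library was left out: Homer1 minus Homer2 was 0.48 without replicate 1, and without replicate 3 the other differences were 0.79 and 0.21. The largest share of the family's RPKM fell to Homer2 in replicate 1 (56.7%), to Homer3 in replicate 2 (45.9%) and to Homer1 in replicate 3 (46.0%).

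Without length scaling, Homer3 was the lowest of the family in 3 of 3 libraries, at 7.41, 22.5 and 6.29 CPM beside 10.3, 60.6 and 102 CPM for Homer1 and 49.9, 33.5 and 103 CPM for Homer2. On the log2(CPM + 1) scale, Homer3 minus Homer1 was -1.88 ± 1.75 and Homer3 minus Homer2 -2.33 ± 1.66 (SD, n = 3), in both cases with the smallest possible exact permutation p of 0.25. Homer3 also has the shortest merged exons of the family, 3440 bases.

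This picture of the Homer genes depends on transcript length more than that of the other families. Merged exons of Homer2 span 12621 bases, but its transcript with the longest coding sequence has 1634. Scaled by such transcripts, Homer2 was at 38.0 ± 22.3 RPKM, Homer1 at 13.4 ± 10.7 and Homer3 at 4.93 ± 3.70 (SD, n = 3). Homer2 was then above Homer1 in 3 of 3 libraries (Homer1 minus Homer2 -1.85 ± 1.59 in log2 units) and above Homer3 in 3 of 3 (Homer3 minus Homer2 -3.00 ± 1.73). Scaled by the longest protein-coding transcript of each gene, of 10982 bases in Homer2, Homer1 minus Homer2 was 0.47 ± 1.57. Which transcripts the cells use was not measured by counts per gene.

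**Figure D3:**
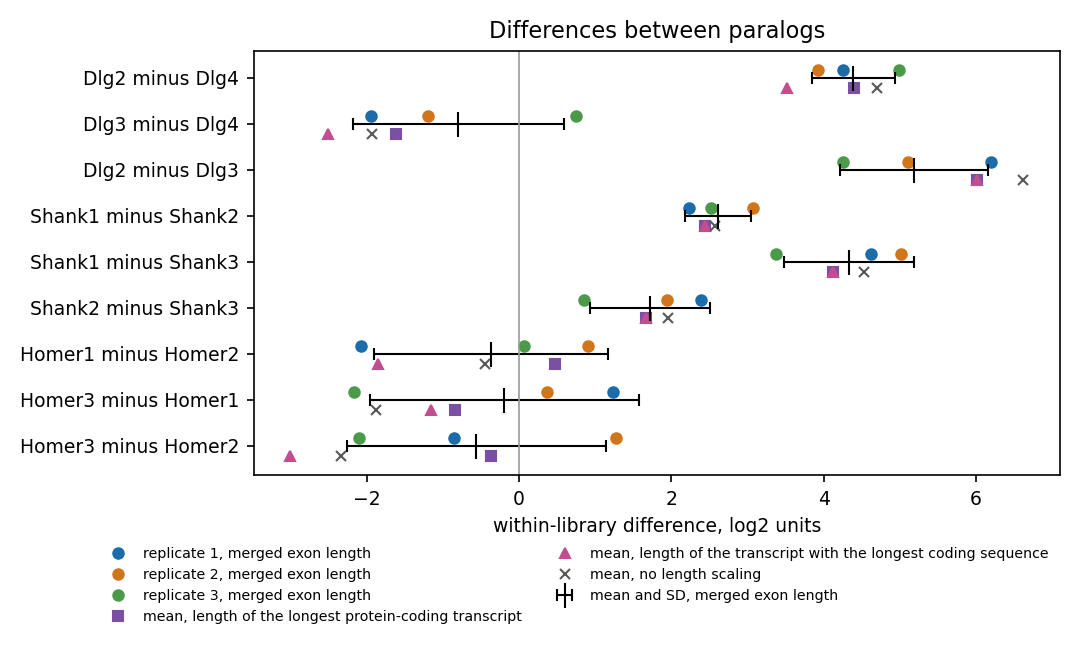
Differences between paralogs within a library, in log2 units: circles, the 3 libraries with merged exon length; black bars, their mean and SD; squares, triangles and crosses, the mean with the length of the longest protein-coding transcript, the length of the transcript with the longest coding sequence, or no length scaling. The Dlg2 and Shank differences lie right of 0 in every library and under every length, while over merged exons the libraries of the 3 Homer differences and of Dlg3 minus Dlg4 spread across 0.

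Ordered by mean RPKM over merged exons, the 9 genes ran from Shank1 and Dlg2 through Shank2, Shank3, Homer2, Homer1, Dlg4 and Homer3 to Dlg3. Shank1 and Dlg2 did not differ beyond their spread (0.19 ± 0.30 in log2 units; SD, n = 3; Shank1 higher in 2 of 3 libraries), and over the transcripts with the longest coding sequence Dlg2 was higher in 3 of 3 (205 against 121 RPKM). The steps from Dlg2 to Shank2 (2.42 ± 0.49) and from Shank2 to Shank3 (1.72 ± 0.79) held in 3 of 3 libraries. Shank3 exceeded Homer2 by only 0.30 ± 0.24 and Dlg4 exceeded Homer3 by 0.61 ± 0.51, both in 3 of 3 libraries. The first of these steps reversed with the transcripts of longest coding sequence, over which Homer2 (38.0 RPKM) lay above Shank3 (7.30 RPKM) and Shank2 (22.3 RPKM), and in CPM, where Homer2 was at 62.1 and Shank3 at 53.8. The steps from Homer2 to Homer1, from Homer1 to Dlg4 and from Homer3 to Dlg3 were within their SD.

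The most abundant scaffold genes had the smallest spread between libraries, and Homer1 had the largest without being the least abundant. All 9 varied beyond counting error by a Poisson chi-square test of the counts with Benjamini-Hochberg adjustment over 11168 genes, as did 96.5% of those genes. By edgeR's quasi-likelihood dispersion, none of the 9 was called more variable than genes of its level, and 0% of genes were called at an adjusted p under 0.05. At an unadjusted p under 0.05, edgeR called 477 genes, none of the 9. With limma, 0 genes were called after adjustment and 521 before, Homer1 among them. Both tests compare a gene with a trend fitted to these same genes, so few calls were likely in advance. They cannot show that no scaffold gene is unusually variable. The coefficient of variation was 10.4% for Dlg2, 16.7% for Shank1 and 24.4% for Shank2, beside medians of 14.3%, 14.3% and 25.3% over the up to 200 genes nearest in mean CPM. Dlg4 (37.1%), Shank3 (47.7%), Dlg3 (69.7%) and Homer3 (74.9%) were likewise near the medians of their neighbours, 44.5%, 47.5%, 68.6% and 83.5%.

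Homer1 stood highest against its neighbours, with a coefficient of variation of 79.6% where the median of the 200 nearest genes was 45.0%, and 13.5% of those genes had a higher one. Its unadjusted p was 0.0705 by edgeR and its adjusted p 0.956. Homer2 followed at 58.5% beside a median of 43.2%. Leaving out 1 library lowered the means of these less abundant genes most: Homer1 was at 57.7 CPM and at 35.1 CPM without replicate 3, Dlg3 at 18.4 CPM and 11.5 CPM without replicate 3, Homer2 at 62.1 CPM and 41.2 CPM without replicate 3, and Homer3 at 12.1 CPM and 6.86 CPM without replicate 2.

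**Figure D4:**
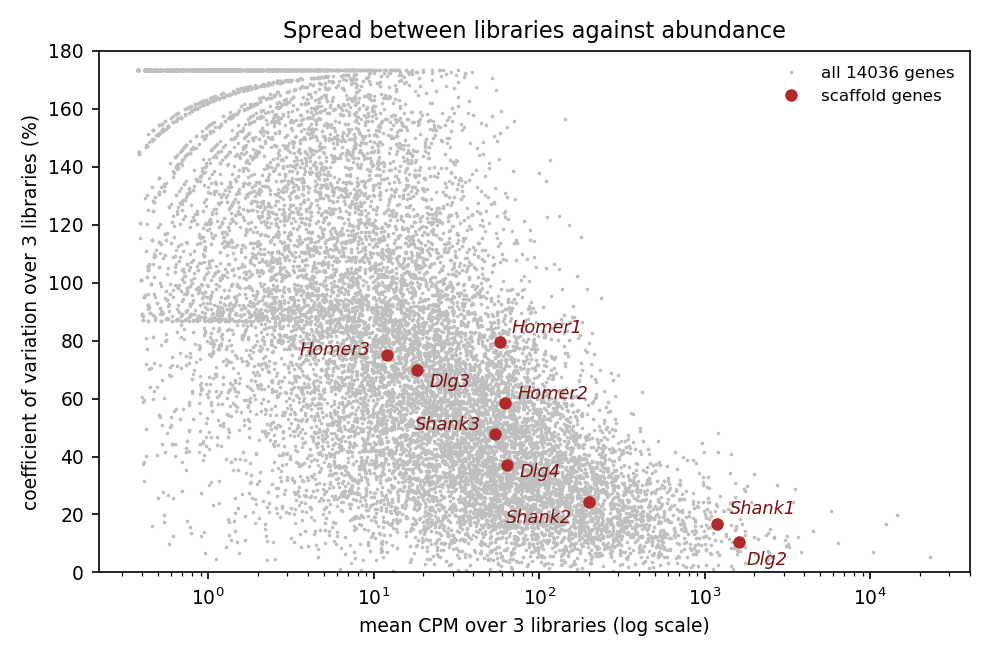
Coefficient of variation over the 3 libraries (percent) against mean CPM (log axis) for the 14036 genes with at least 10 counts in all (grey) and the 9 scaffold genes (red). Variation falls with abundance, and the scaffold genes lie within the cloud, from Dlg2 at 10.4% to Homer1 at 79.6%.

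Summed over each family, the layers of the scaffold differed in level. The 3 Dlg genes summed to 92.2, 113 and 114 RPKM, the 3 Shank genes to 141, 152 and 120 RPKM, and the 3 Homer genes to 6.97, 14.2 and 18.5 RPKM. The 4 SAPAP genes that join Dlg to Shank summed to 51.1, 49.7 and 49.9 RPKM. The Homer sum was the lowest in each library and the Shank sum the highest. With the transcripts of longest coding sequence, the Dlg sum (227 ± 24.8 RPKM; SD, n = 3) was above the Shank sum (151 ± 16.9 RPKM) in each library, and the Homer sum (56.4 ± 28.9 RPKM) was still the lowest. On that scale the SAPAP sum was 127, 145 and 148 RPKM, beside 154, 166 and 132 RPKM for Shank. It was thus below the Shank sum in replicates 1 and 2 and above it in replicate 3.

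Of the 4 SAPAP genes, Dlgap1 (26.1 ± 5.99 RPKM, SD, n = 3) and Dlgap4 (21.9 ± 6.30 RPKM) had at least 10 RPKM in every library. Among the 12539 genes counted above, 18.0% did. Dlgap2 (1.20 ± 0.22 RPKM) and Dlgap3 (0.967 ± 0.617 RPKM) were near 1 RPKM. As in the Dlg and Shank families, most of the signal thus fell on part of the family, here on 2 genes of 4.

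Over merged exons, the highest Homer ligands lay above all 3 Homer genes. Itpr1, the IP3 receptor that releases calcium from stores, was at 200 ± 24.6 RPKM (SD, n = 3), and the dynamin gene Dnm3 at 58.2 ± 20.03 RPKM. The ryanodine receptor gene Ryr2 was at 11.7 ± 1.78 RPKM. These were among the highest of the list of 10, of which 3 had at least 10 RPKM in every library, beside 18.0% of the 12539 genes. Trpc1 (3.32 ± 1.25 RPKM) and Ryr1 (1.34 ± 0.90 RPKM) were the lowest, and Homer genes lay between 1.83 and 8.52 RPKM in all but 1 value.

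Among 8 known partners of Shank, Sptan1, the alpha spectrin that binds Shank proteins, was the highest at 113 ± 16.4 RPKM (SD, n = 3), close to Shank1 itself. The latrophilin gene Adgrl1 followed at 23.8 ± 5.45 RPKM. The actin regulators Abi1 (13.2, 28.8 and 7.03 RPKM) and Baiap2 (4.19, 9.28 and 35.1 RPKM) varied widely between libraries. In every library, 2 of the 8 genes, Sptan1 and Adgrl1, had at least 10 RPKM, beside 18.0% of the 12539 genes. Sharpin (5.34 ± 2.93 RPKM) and the cortactin gene Cttn (1.45 ± 0.60 RPKM) were the lowest.

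Of 16 ligands and signalling partners of Dlg proteins, 6 had at least 10 RPKM in every library, beside 18.0% of the 12539 genes. The exchange factor gene Iqsec1 (49.0 ± 10.01 RPKM; SD, n = 3), the adhesion genes Lrrtm2 (26.2 ± 6.91 RPKM) and Nlgn3 (23.9 ± 14.4 RPKM) and the epilepsy-linked receptor gene Adam22 (24.4 ± 7.91 RPKM) were the highest. The NMDA receptor genes Grin2b (0.586 ± 0.436 RPKM) and Grin2a (0.463 ± 0.445 RPKM), whose products are classic ligands of Dlg4, were the lowest. Grin2a had 132, 26 and 35 counts and Grin2b 141, 20 and 177, so both were lowest in replicate 2.

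The relatives Dlg1, Dlg5 and the MAGI, MPP and CASK genes gave 10 further scaffolds. At least 10 RPKM in every library was found for 2 of them, near the share of 18.0% over the 12539 genes. Magi2 (16.1 ± 7.10 RPKM; SD, n = 3), Mpp2 (35.0, 2.62 and 7.85 RPKM), Mpp5 (13.4 ± 3.04 RPKM) and Cask (12.4 ± 3.63 RPKM) were the highest. Mpp3 (3.73 ± 1.70 RPKM) and Dlg5 (2.68 ± 1.80 RPKM) were the lowest. None reached the level of Dlg2.

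For contrast, scaffold genes of inhibitory synapses were, over merged exons, above Dlg4 and all Homer genes. The adhesion gene Nlgn2 was at 24.5 ± 12.6 RPKM (SD, n = 3), Iqsec3 at 22.9 ± 10.4 RPKM and the gephyrin gene Gphn at 18.8 ± 8.34 RPKM. All 4 genes of the list had at least 10 RPKM in every library, beside 18.0% of the 12539 genes. By their means they lay between Shank2 and Dlg2. Gphn was barely above Shank2 in mean (18.8 and 18.6 RPKM). It was below Shank2 in replicate 1 (18.5 against 23.9 RPKM) and replicate 3 (10.6 against 16.4 RPKM), and above it in replicate 2 (27.2 against 15.6 RPKM).

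**Figure D5:**
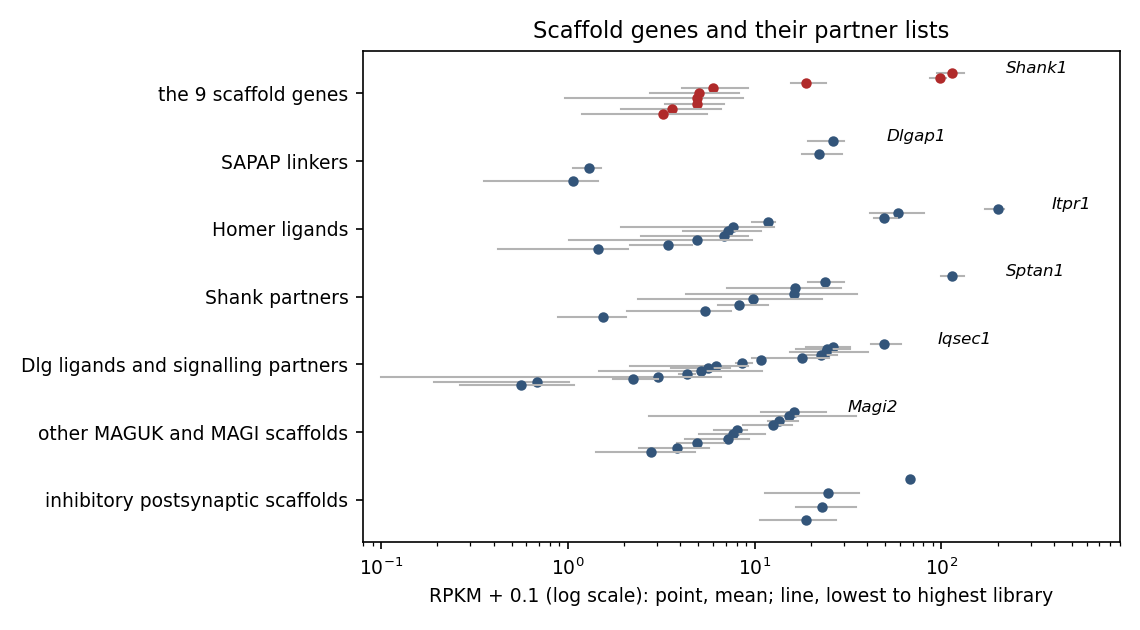
RPKM + 0.1 (log axis; merged exon length) of the 9 scaffold genes (red) and of the genes in 6 partner lists (blue), with the mean as a point, the lowest and highest library as the ends of a line and the highest gene named for all lists but that of inhibitory scaffolds. Dlg2 and Shank1 lie beside Sptan1 and below Itpr1, and the 4 inhibitory scaffold genes lie to the right of Dlg4 and the Homer genes.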

How the data were processed

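The authors deposited raw counts of reads per gene symbol, 1 table for each of 3 libraries. Per the submitters' processing notes, STAR 2.0.0e and HTSeq were used with the build mm10. Which gene models and which strand setting were used is not given in the sources used here. HTSeq's summary rows were left out: 44.1% to 50.2% of counted reads fell on no feature and 1.77% to 1.94% on several genes.

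Library sizes were scaled by TMM (edgeR 4.0.16, R 4.3.3). CPM was divided by merged exon length from GENCODE M21 (23113 symbols matched) to give RPKM, and log values are log2(RPKM + 0.1). RPKM over merged exons understates genes whose annotation holds rarely used exons. Paralog differences were tested by exactly permuting the signs of the 3 differences (two-sided). Genes with 10 or more counts in 2 libraries entered the tests of spread between libraries. These were a Poisson chi-square test that used the TMM sizes, and the quasi-likelihood dispersion of edgeR (glmQLFit with an intercept) against its trend, both adjusted by the Benjamini-Hochberg method and tested on simulated data. The counts simulated for the edgeR test varied less than these libraries, whose coefficient of variation beyond counting error was 0.832 by edgeR. How that test performs at such a spread was not tested. Alternatives were DESeq2 1.42.0 size factors, limma 3.58.1, other lengths, pseudocounts and filters, and leaving out each library. The transcripts with the longest coding sequence were added after lengths were seen.

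The 9 genes and the lists were chosen with earlier results of these data known. From each partner list, the 4 highest and 2 lowest genes by mean RPKM are named (all, in lists of up to 6); a few genes are left out of the text but enter the list counts. Dlg1 is named as a list member, without a value. Counts cover counting error only as far as reads are independent molecules. Protein sequences were not used here.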

Additional observations from a re-analysis of the deposited data

How the results depend on the processing

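Of 81 alternative values of the 9 paralog differences, 77 kept their direction. Part of these could hardly reverse, since other size factors and pseudocounts keep the order of paralogs within a library. The values that changed direction were all of Homer genes: Homer1 minus Homer2 was 0.47 with the length of the longest protein-coding transcript and ranged from -1.01 to 0.48 when 1 library was left out, Homer3 minus Homer1 from -0.90 to 0.79, and Homer3 minus Homer2 from -1.47 to 0.21. With 1 library left out, Dlg2 minus Dlg4 ranged from 4.09 to 4.62 and Shank1 minus Shank2 from 2.38 to 2.80. All 45 alternative mean levels of the 9 genes stayed within 1 SD, as did 49 alternative family shares. Where 1 of the 3 libraries was left out, this was all but fixed in advance. Dropping 1 of 3 values moves their mean by less than 1 SD. For the levels, other size factors left little room to move as well. They put the size of replicate 3 at 7776187 (DESeq2) or 7622010 (no scaling factor), beside 7792657 with TMM. Another 5 shares moved further, among them Homer2, at 39.8% over merged exons and 67.4% over transcripts with the longest coding sequence. Genes varying beyond counting error numbered 6327 of 6547 when at least 50 counts in every library were asked for, where fewer genes are tested, with 7 of 7 scaffold genes called; with 1 library left out, 7 or 8 of the 9 were called, beside 80.5% to 82.2% of all genes tested. Genes more variable than others of their level numbered 20 with no filter, 1 at that minimum, and 2 to 5 with 1 library left out, none of them a scaffold gene; the cause was not tested. No paired analysis was possible because there is no second group whose libraries could be paired with these; differences between genes were taken within each library. Counts as low as 48 to 78 in a library limit the precision for Dlg3, Homer1 and Homer3.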
